A study of Mus musculus with 29 samples.

Results

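Gene expression was compared between wild-type (WT) mouse embryonic stem cells, labelled mESC WT, and the neural precursor cells derived from them, labelled NPC WT, across all genes. The comparison used 4 of the 29 arrays of the study, chosen by their source label: the 2 mESC WT arrays and the 2 NPC WT arrays that carry no agent in their label. Each array was a Clariom D (MTA 1.0) array hybridised with cDNA from 150 ng of total RNA of 1 culture sample, and the design text calls the 2 samples of a stage biological replicates. The stem cells were grown without feeder cells in knockout-DMEM with leukemia inhibitory factor (LIF) and an addition that the labels abbreviate as "di". Neural induction took place in a medium with insulin, transferrin, selenium and fibronectin, and the precursors were expanded with N2 supplement, FGFb and laminin. The treatment label of all 4 arrays is none, while the protocol names a DMSO vehicle over 4 days for precursors that did not receive the agonist LY3201. The labels give no passage number and no day of differentiation. Arrays of the same stages labelled BERKO, which the labels describe as lacking ERβ (the estrogen receptor encoded by Esr2), entered a comparison of the same step between genotypes.

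Embryonic stem cells kept with LIF hold a network of transcription factors around Oct4 (Pou5f1), Sox2 and Nanog that sustains self-renewal and the capacity to form all lineages of the embryo. During neural induction this network is shut down, cells exchange E-cadherin for N-cadherin, and Notch and FGF signals maintain a dividing precursor population with the character of radial glia, the stem cells of the developing nervous system. Radial glia carry glial genes such as Fabp7 and Slc1a3 and can give rise to neurons, astrocytes and oligodendrocytes.

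Expression values are on a log2 scale, so a difference of 1 is a doubling, and differences are NPC minus mESC with the standard error (SE) of limma's model. Replicates lay close together: across genes, which are not independent replicates, Pearson's r was 0.998 for the mESC pair and 0.9982 for the NPC pair, and the SD of the difference between replicates was 0.216 and 0.2. A level was told from background when it exceeded the 95th percentile of the 5222 negative controls on its array, between 7.45 and 7.52 on the 4 arrays. Where every array of 1 stage lay below that mark and every array of the other above it, the fold is given as "at least", computed against the mark. Differences printed with an SE are those of the measured values, and for such genes they do not give the size of the change. In bulk samples, fewer cells of a type and less RNA per cell cannot be told apart. The p-values rest on the spread between replicate arrays within all 14 groups of the study. They do not rest on that of the 4 compared arrays alone. Some groups outside the 4 arrays may hold repeat arrays of the same culture, as described with the BERKO arrays below, which was not tested. Levels of different genes are not comparable because each has its own probes.

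The step changed most of the measured transcriptome. At a Benjamini-Hochberg adjusted p of 0.05 in limma, 6159 of 22063 genes tested were higher in NPC (27.9%) and 7713 were lower (35%), and the median difference over all genes tested was -0.04. The arrays of the stages did not overlap in 81.7% of genes. Measured changes of at least 2-fold made up 13.9% of genes upward and 18.8% downward. Measured differences reached 16-fold in 408 genes that rose and 404 that fell, and 256-fold in 54 and 51. With genes at background in 1 stage held to their bound, 173 and 166 genes reached 16-fold and 12 and 10 reached 256-fold. Of the 30142 genes with a cluster of their own, 1212 stood above background in both NPC arrays and in neither mESC array, 1338 in both mESC arrays and in neither NPC array, and 5517 in all 4 arrays. With 62.9% of all genes called in either direction, a single call says little about a gene list, so each list below is described by its counts and its median against these values.

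**Figure D1:**
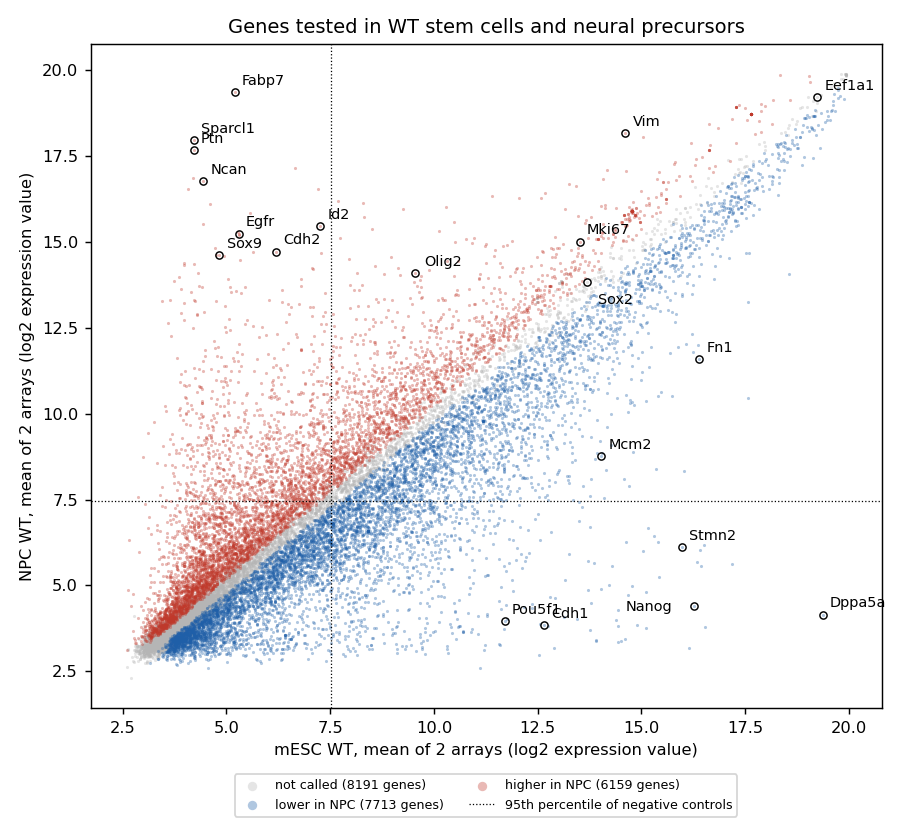
Mean log2 expression value of each of the 22063 genes tested in NPC WT (vertical) against mESC WT (horizontal), 2 arrays per stage, with genes called higher in red, lower in blue and not called in grey. Dotted lines mark the mean 95th percentile of the negative controls; Fabp7 and Dppa5a stand farthest from the diagonal, and Sox2 and Eef1a1 lie on it.

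Core pluripotency genes fell, with 1 exception. Of the 23 core pluripotency genes, 22 fell and none rose, with a median of -7.32. Pou5f1, which encodes Oct4, was 11.62 and 11.79 in the mESC arrays and 3.98 and 3.96 in the NPC arrays, a difference of -7.73 ± 0.13 (adjusted p = 1.78e-20). Zfp42 (Rex1), a marker of undifferentiated cells, was 11.05 and 11.09 against 4.14 and 4.10. Sall4, a zinc finger partner of Oct4, was 13.46 and 13.43 against 4.13 and 3.91. All 3 genes were well separated between stages and ended below background, and the fall was at least 19-fold for Pou5f1 and at least 63.6-fold for Sall4. Rif1, a telomere and replication timing factor on the list, fell by 5.89 ± 0.10 and, with Sox2, stayed above background in both NPC arrays; it was named after its values had been seen. The gene that was not called was Sox2, a factor that serves both stem cells and neural precursors. Sox2 was 13.62 and 13.76 in mESC and 13.88 and 13.77 in NPC, with a difference of 0.14 ± 0.12 (adjusted p = 0.351); under quantile normalization it was 0.41 and passed the test (limma adjusted p = 0.00905). The difference between stages was as large as that between the mESC arrays.

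Genes of the naive state and of the LIF response were mostly lower. Of 20 tested, 16 fell and 4 rose, with a median of -4. Tfcp2l1, a LIF target that holds the naive state, was 14.45 and 14.43 in mESC and 3.81 and 3.84 in NPC. Nr0b1 (Dax1), an orphan receptor that binds Oct4, was 14.51 and 14.69 against 3.46 and 3.41. Klf4 fell by 6.66 ± 0.10, Tbx3 fell by 7.09 ± 0.11 and Prdm14 fell by 6.18 ± 0.09. Among the 4 that rose, Lifr, the LIF receptor, was 10.08 and 10.03 in mESC and 12.18 and 12.30 in NPC (2.18 ± 0.12, adjusted p = 2.13e-12). Its co-receptor Il6st (gp130) rose by 1.15 ± 0.12 and the signal transducer Stat3 by 2.24 ± 0.12. All 3 were above background in every array.

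Genes of the epiblast and of the primed state that follows the naive one in the embryo were mostly lower. Of 13 tested, 10 fell and 2 rose (median -1.13). Dnmt3b, the de novo DNA methyltransferase of the epiblast, was 11.73 and 11.77 in mESC and 4.43 and 4.46 in NPC. Nodal, the ligand that patterns the epiblast, was 8.38 and 8.09 against 3.95 and 3.89, and the Nodal co-receptor Tdgf1 was at least 541-fold lower (measured difference -12.75 ± 0.18). Tdgf1 shares near-identical sequence with the pseudogene Tdgf1-ps1 (-12.97), so the probes of either may read both; the pseudogene was named after its values had been seen. Fgf5 and Otx2 lay below background in all 4 arrays. Sox4, a SoxC factor of neural progenitors that is also on this list, rose by 7.41 ± 0.16.

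A group of neighbouring zinc finger genes on chromosome 4 fell. The protein-coding genes tested were ordered by their RefSeq position. Genes that were not tested were passed over, so neighbours here need not be adjacent on the chromosome. Runs of at least 6 neighbours that all changed at least 2-fold in the same direction were collected after the values had been seen. In all, 8 such runs were found among 14533 genes placed. The run with the largest median, -9.14, held 11 neighbours: Tnfrsf1b, Tnfrsf8, Zfp980, Zfp987, Zfp600, Zfp981, Rex2, Zfp991, Zfp979, Zfp534 and Zfp984, with differences between -11.55 and -1.27. Zfp980 was 17.22 and 17.16 in mESC and 5.69 and 5.59 in NPC, a fall of at least 851-fold, and Rex2 was 16.42 and 16.40 against 5.96 and 6.09. Of the 11 genes, 9 stood above background in both mESC arrays and 1, Zfp984, in both NPC arrays. These zinc finger genes arose by duplication and are close in sequence, so their clusters may share probes or transcripts and are not independent measurements.

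**Figure D2:**
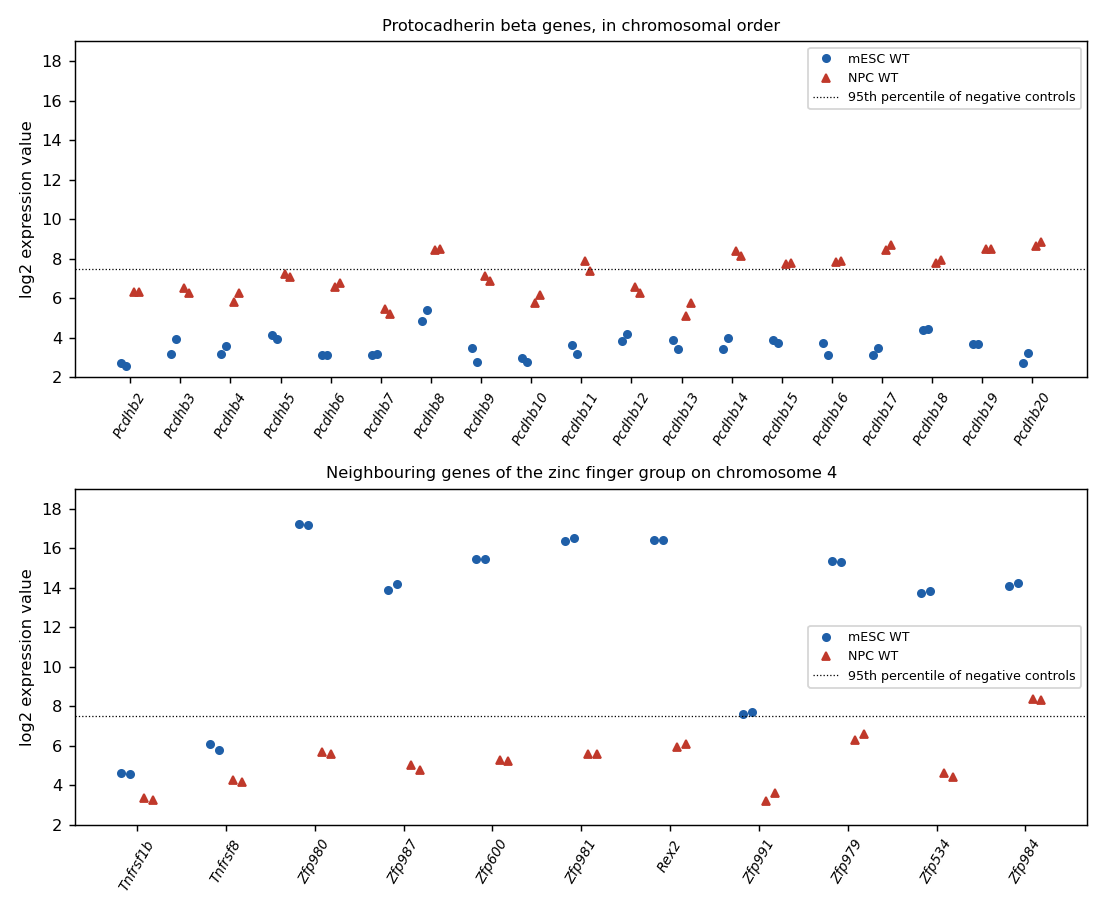
Log2 expression values per array for runs of neighbouring genes in chromosomal order, with mESC WT arrays as blue circles, NPC WT arrays as red triangles and the mean 95th percentile of the negative controls dotted. The 19 protocadherin beta genes (top) were higher in NPC by 1.77 to 5.76, and the 11 neighbours on chromosome 4 (bottom) changed by -11.55 to -1.27.

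Germline genes, which stem cells grown with LIF transcribe at low levels and somatic cells silence by DNA methylation and Polycomb complexes, fell. On the list of 2-cell-like and germline genes, 19 of 21 tested fell and 1 rose, with a median of -3.08. Only 7 members stood above background in both mESC arrays and none in both NPC arrays. Hormad1, a meiotic chromosome axis protein, was 10.81 and 10.62 in mESC and 3.63 and 3.75 in NPC (-7.03 ± 0.11, adjusted p = 6.11e-21). Tdrd12, a factor of the piRNA pathway, was 10.41 and 10.44 against 3.61 and 3.62. Dazl, an RNA-binding protein of germ cells, was 9.64 and 9.73 against 3.33 and 3.31, and Rhox5 fell by 5.31 ± 0.25. The meiotic protein Sycp3 was 7.75 and 7.17 in mESC, of which 1 array was above background, and 5.02 and 5.16 in NPC. Zscan4c, a marker of rare 2-cell-like cells, fell by 2.74 ± 0.11 but lay below background in all 4 arrays. The 1 rise was that of Dmrtb1 (0.32 ± 0.12), which stayed below background and whose call was lost without mESC WT replicate 1, without NPC WT replicate 2 or with only the compared groups fitted.

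Promoters of these germline genes are shown because many hold the E-box CACGTG, the motif bound by MGA with MAX and by other bHLH factors. The motif was chosen with the results in view, it reads the same on both strands, and it is set in capitals. Among 20 list members with a promoter in RefSeq (assembly GRCm38.p6), 9 held CACGTG in the 250 bases before their start, against 6.05% of 27025 genes. Of the 20, 18 fell, and 8 of these 18 held the motif. With nearly all members lower, these counts do not tie the motif to the fall. GCGGGA, the core of an E2F site, was present on either strand in 5 of the 20, against 16.9% of all genes. No test was made of these shares, and a match is not a bound site. The windows below run 5′ to 3′ on the strand of the gene, and each lies upstream of the annotated start.
Hormad1 (chr3:95559595-95559676, + strand): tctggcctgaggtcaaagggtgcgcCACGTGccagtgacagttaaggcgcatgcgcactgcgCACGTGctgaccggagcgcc
Sycp3 (chr10:88459498-88459574, + strand): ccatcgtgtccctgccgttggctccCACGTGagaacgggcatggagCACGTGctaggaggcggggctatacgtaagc
Mael (chr1:166238937-166238992, - strand): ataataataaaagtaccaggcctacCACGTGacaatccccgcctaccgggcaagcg
Ddx4 (chr13:112652311-112652364, - strand): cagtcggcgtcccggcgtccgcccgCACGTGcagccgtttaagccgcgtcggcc
Stk31 (chr6:49395459-49395514, + strand): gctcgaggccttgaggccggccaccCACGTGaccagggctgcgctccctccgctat
Hormad1 and Sycp3 each hold 2 copies. Mael, a piRNA factor, fell by 4.51 ± 0.10, Ddx4 (the RNA helicase VASA) fell by 3.96 ± 0.12 and Stk31, a kinase with a Tudor domain, fell by 3.08 ± 0.13. Ddx4, Stk31 and 3 of the genes in the next paragraph (L3mbtl2, Mga and Max) were named after their values had been seen.

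Chromatin regulators fell more often than they rose. Of 35 Polycomb and DNA methylation genes tested, 25 fell and 9 rose, with a median of -1.86. In the DNA methylation machinery, Dnmt3b (above) and its cofactor Dnmt3l fell, Dnmt3l from 7.95 and 7.90 to 3.21 and 3.12. Dnmt3a fell by only 0.46 ± 0.11, a call lost under quantile normalization (-0.20), and stayed above background in every array. Among the TET dioxygenases, which oxidise methylated cytosine, Tet1 was 13.96 and 13.91 in mESC and 8.75 and 8.94 in NPC, and Tet3 was 4.99 and 5.12 against 8.37 and 8.40. Tet2 fell by 2.54 ± 0.11, so the 3 family members did not change together. In Polycomb complex 2, which trimethylates histone H3 on lysine 27, Eed was 14.18 and 13.91 in mESC and 8.79 and 8.90 in NPC (-5.20 ± 0.11), Suz12 fell by 3.51 ± 0.09 and the catalytic Ezh2 fell by 1.03 ± 0.09. The accessory subunits Mtf2 (-5.20 ± 0.13) and Epop (-5.58 ± 0.18) also fell. In Polycomb complex 1, Pcgf6 was 10.16 and 10.03 against 6.12 and 6.24, and Bmi1, also a PCGF protein, was 6.86 and 7.18 against 10.39 and 10.38. Of the proteins that join Pcgf6 in a complex that represses germline genes, L3mbtl2 fell by 4.29 ± 0.07, Mga fell by 2.40 ± 0.11 and Max fell by 0.41 ± 0.15; the fall of Max was not called under quantile normalization (-0.15) or without 1 array of either stage.

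Subunits of the BAF (SWI/SNF) remodelling complex changed in both directions. This complex uses different homologous subunits in stem cells, neural progenitors and neurons. Of 29 genes tested, 16 rose and 8 fell (median 0.42). Smarcc2 (BAF170) was 8.46 and 8.59 in mESC and 12.52 and 12.56 in NPC, while its paralogue Smarcc1 (BAF155) was 13.42 and 13.37 against 11.88 and 11.99. The ATPase Smarca2 (BRM) was 5.45 and 5.48 against 9.40 and 9.51, and the ATPase Smarca4 (BRG1) rose by 0.37 ± 0.11, a call lost without NPC WT replicate 2 (0.29). The progenitor subunit Actl6a (BAF53a) fell by 3.73 ± 0.08. Its neuronal counterpart Actl6b (BAF53b) lay below background in all 4 arrays (0.02 ± 0.13, adjusted p = 0.895), as did Dpf1 (BAF45b), which also failed the test.

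**Figure D3:**
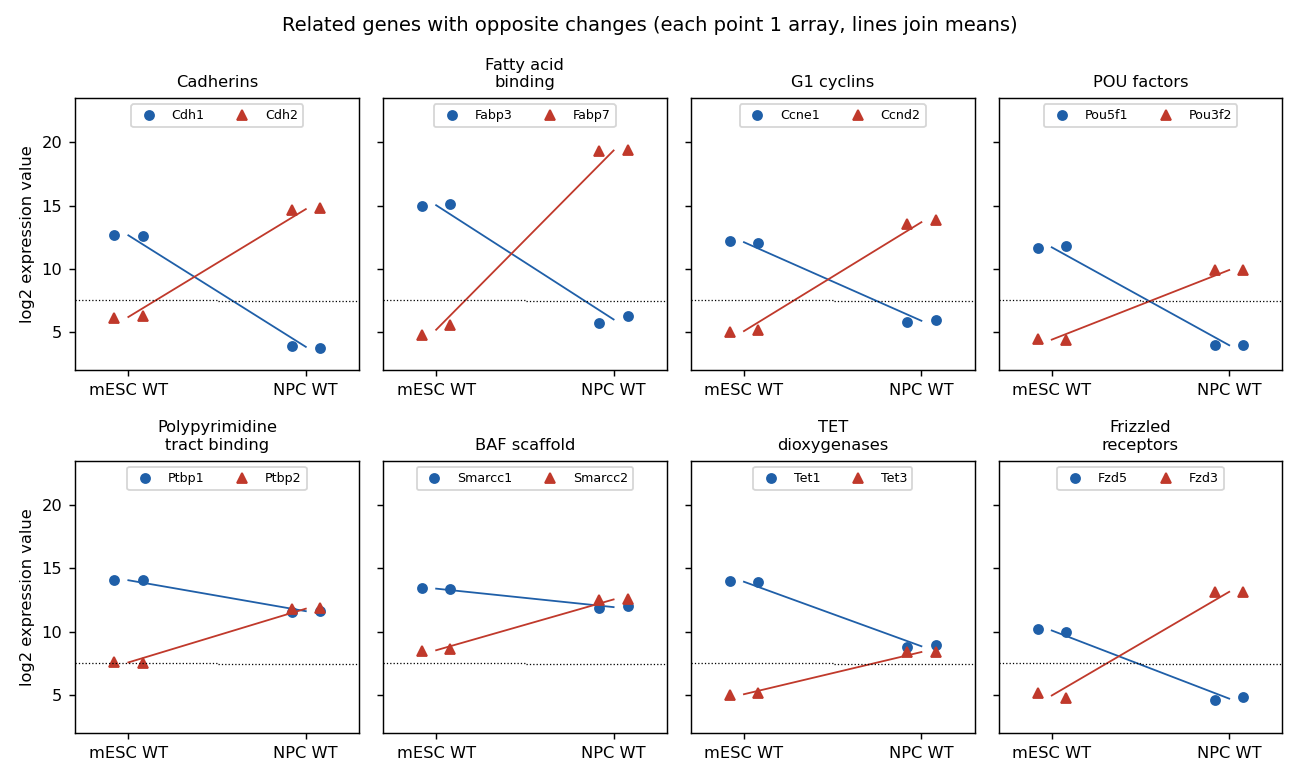
Log2 expression value per array for 8 pairs of related genes (blue circles and red triangles), with lines joining the stage means and the 95th percentile of the negative controls dotted. The pairs were picked because their genes changed in opposite directions, so the directions are not a finding. The gene in blue fell, from Smarcc1 (-1.46) to Fabp3 (-9.02), and the gene in red rose, from Tet3 (3.33) to Fabp7 (14.16). For no gene shown do the arrays of the stages overlap, which also holds for 81.7% of all genes tested.

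Most radial glial genes rose. Of the 30 genes on the neural stem cell and radial glia list, 24 rose and 3 fell, with a median of 4.79. Fabp7, the brain fatty acid binding protein of radial glia, was 4.81 and 5.59 in mESC and 19.34 and 19.37 in NPC, at least 3670-fold higher. Ptprz1, a receptor phosphatase, was 4.14 and 4.26 against 16.80 and 16.94, and its ligand Ptn was at least 1150-fold higher (measured difference 13.46 ± 0.13). The intermediate filament gene Vim was 14.67 and 14.55 against 18.15 and 18.19, so it was already expressed in the stem cells. Slc1a3 (GLAST), a glutamate transporter, was 6.28 and 6.25 against 10.44 and 10.49. Nfia, Nfib and Nfix, the nuclear factor I genes that promote gliogenesis, rose by 10.14 ± 0.11, 5.65 ± 0.12 and 6.68 ± 0.10. Pax6, a determinant of dorsal forebrain and retinal progenitors, rose by 1.59 ± 0.07 but did not leave background, at 6.23 and 6.17 in NPC. Rest, which represses neuronal genes in other cells, was 13.36 and 13.18 in mESC and 8.19 and 8.21 in NPC.

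Transcription factor families around these genes divided. Of 16 Sox genes tested, 11 rose and 3 fell (median 1.39). Sox9, which specifies glial competence, was 4.97 and 4.69 in mESC and 14.66 and 14.56 in NPC. Sox11 was 6.68 and 6.92 against 11.75 and 11.95, and Sox6 rose by 6.43 ± 0.13. The early neuroectoderm factor Sox1 was 6.15 and 6.67 against 7.48 and 7.63, a rise of 1.14 ± 0.15 that brought it just above background, and Sox3 (1.64 ± 0.23) stayed below. Sox15, a stem cell gene, fell by 5.42 ± 0.21. Of 19 POU and bHLH factors tested, 9 rose and 6 fell (median -0.05). Among POU factors, Pou3f2 (Brn2), a neural partner of Sox2, was 4.48 and 4.35 in mESC and 9.94 and 9.88 in NPC, and Pou3f1 did not pass the test (-0.17 ± 0.09). Rfx4 (9.05 ± 0.11), Meis1 (6.46 ± 0.08), Zeb1 (5.09 ± 0.10) and Tcf4 (7.13 ± 0.13), all expressed in neural progenitors, rose. On the list of Meis, Pbx, Nfi, Zic, Zeb and Fox factors, 29 of 51 tested rose and 12 fell (median 0.69). At least 2-fold changes were 23 rises and 10 falls.

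Notch signalling, by which neighbouring precursors hold each other back from differentiation, had more genes that rose than fell. Of 28 genes tested, 19 rose and 4 fell, with a median of 2.02. Notch1 was 6.76 and 6.83 in mESC and 11.81 and 11.93 in NPC (5.08 ± 0.15), and Notch2 and Notch3 rose by 3.29 ± 0.18 and 2.09 ± 0.13. The ligand Dll1 rose by 5.93 ± 0.18, Jag1 rose by 3.08 ± 0.12 and Dll3 by 2.64 ± 0.14. Among the target genes, which encode bHLH repressors, Hey1 was 5.27 and 4.71 against 11.47 and 11.33, and Hes5 was 4.04 and 4.07 against 7.83 and 8.02. Hes1 did not follow: it was 7.27 and 7.38 in mESC and 7.15 and 7.02 in NPC (-0.24 ± 0.11, adjusted p = 0.073), below background in all 4 arrays. Rbpj, the DNA-binding protein through which Notch acts, fell from 12.91 and 12.94 to 10.36 and 10.35, and the feedback inhibitor Nrarp rose by 2.60 ± 0.18.

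TGGGAA is the core of the site bound by RBPJ, and its match or that of its reverse complement TTCCCA is shown in capitals for 2 genes of the pathway that rose. Among 24 Notch list members with a promoter in RefSeq, 5 (Hes5, Hey2, Lfng, Rbpj and Maml3) held it in the 250 bases before the start, against 21.5% of all genes, so the motif was not more frequent on the list than elsewhere.
Hes5 (chr4:154960673-154960871, + strand, GRCm38.p6): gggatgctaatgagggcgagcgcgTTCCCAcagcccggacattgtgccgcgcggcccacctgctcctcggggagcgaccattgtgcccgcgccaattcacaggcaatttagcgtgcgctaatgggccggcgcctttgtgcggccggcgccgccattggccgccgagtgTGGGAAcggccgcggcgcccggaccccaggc
Lfng (chr5:140607181-140607263, + strand, GRCm38.p6): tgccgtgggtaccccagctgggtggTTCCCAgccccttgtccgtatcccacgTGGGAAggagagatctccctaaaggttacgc
Both windows hold 2 matches, 1 in each orientation. Lfng, a glycosyltransferase that modifies Notch receptors, was 4.70 and 4.12 in mESC and 9.14 and 9.02 in NPC (4.67 ± 0.17). Lfng, Hey2 (2.59 ± 0.16) and Maml3 (1.22 ± 0.08) were named for their motif after their values had been seen.

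Among the factors that mark position along the neural axis, Hox genes rose and forebrain factors stayed at background. Of 22 Hox genes tested, 21 rose and none fell, with a median of 1.92, and the remaining gene was Hoxb1 (0.03 ± 0.12). Of these, 5 stood above background in both NPC arrays. Hoxc10, a gene of the lumbar level, was 3.40 and 3.11 in mESC and 9.68 and 9.83 in NPC (6.50 ± 0.20, adjusted p = 3.83e-16). Hoxa6 was 3.59 and 3.85 against 9.06 and 9.18, and Hoxa5 rose by 4.79 ± 0.24. None of the 15 forebrain factors tested stood above background in both arrays of either stage: 4 rose and 2 fell, and Six3 (0.39 ± 0.10) and Otx2 (0.73 ± 0.09) were the largest rises. Of 21 midbrain and hindbrain boundary factors tested, 12 rose and 2 fell (median 0.39), and Irx3 alone (1.13 ± 0.16) was above background in both NPC arrays. Dbx2, a factor of the intermediate neural tube, rose from 3.85 and 3.75 to 7.06 and 7.60, of which 1 array was above background. En1 and En2, the midbrain factors, stayed below background after rises of 0.61 ± 0.11 and 0.56 ± 0.17, and the call of En2 was lost without replicate 1 of either stage (0.41 and 0.45).

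Hedgehog pathway genes changed in both directions. Of 16 tested, 11 rose and 5 fell (median 1.43). Ptch1, the receptor and a target of the pathway, was 9.70 and 9.69 in mESC and 13.67 and 13.69 in NPC (3.98 ± 0.09). The signal transducer Smo was 7.20 and 7.28 against 11.55 and 11.68, and the co-receptor Boc rose by 4.27 ± 0.11. Gli2, an activating transcription factor, fell from 8.63 and 8.65 to 6.33 and 6.29, and the target Gli1 fell by 0.83 ± 0.08, below background at both stages. Gli3, mainly a repressor, rose by 1.71 ± 0.11 to 7.62 and 7.80. The labels name Shh in the medium of the later mDPC stage and not in that of the NPC stage.

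FGF pathway genes changed in both directions. Fgf4, the ligand that stem cells make for themselves, was 13.91 and 13.62 in mESC and 3.60 and 3.81 in NPC, a fall of at least 79.3-fold. Of 23 genes tested, 9 rose and 8 fell (median -0.02). Fgfr3, a receptor of neural progenitors and astrocytes, was 5.41 and 5.20 against 8.42 and 8.45, Fgfr1 rose by 1.82 ± 0.08 and the decoy receptor Fgfrl1 by 5.37 ± 0.15. The feedback genes differed: Spry4 fell by 4.07 ± 0.18 and Spry2 fell by 0.74 ± 0.16, and Etv5 did not pass the test (-0.11 ± 0.20, adjusted p = 0.674).

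Genes of the TGF-beta superfamily changed in both directions. Of 40 genes tested, 20 rose and 11 fell (median 0.23). Bmp4 was 9.46 and 9.37 in mESC and 4.55 and 5.02 in NPC, Gdf3 fell by 7.32 ± 0.12 and Lefty2 fell by 2.38 ± 0.10. The receptor Bmpr1b rose by 4.44 ± 0.13 and Bmpr2 rose by 5.74 ± 0.14. Id genes are BMP targets whose products block bHLH factors. Id2 was 7.42 and 7.09 in mESC and 15.36 and 15.56 in NPC, Id4 rose by 5.82 ± 0.28, Id3 by 2.91 ± 0.14 and Id1 by 1.64 ± 0.25, and all 4 were above background in both NPC arrays and in neither mESC array. Smad6, another BMP target, did not pass the test (-0.05 ± 0.13) and was named after its values had been seen.

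Wnt pathway genes changed in both directions. Of 37 tested, 22 rose and 8 fell (median 0.84). Fzd3, a receptor of axon tracts, was 5.13 and 4.78 in mESC and 13.12 and 13.16 in NPC, and Fzd5 was 10.23 and 9.95 against 4.59 and 4.82. The secreted antagonist Sfrp1 fell from 13.40 and 13.60 to 7.39 and 7.49, and Porcn, the enzyme that lipidates Wnt ligands, fell by 3.94. Tcf7l1, a repressor of pluripotency genes, fell by 2.11 ± 0.11. The target gene Axin2 rose by 0.98 ± 0.14 and stayed below background.

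Markers of the lineages that precursors give rise to were unequal. On the astrocyte list 16 of 20 genes tested rose and 1 fell (median 3.74). Aldoc, the astrocyte aldolase, was 6.52 and 6.80 in mESC and 17.18 and 17.12 in NPC, Sparcl1 was at least 1410-fold higher (measured difference 13.74 ± 0.15), and the glutamate transporter Slc1a2 (GLT-1) was 4.38 and 4.22 against 12.89 and 12.87. Gfap, the filament of mature astrocytes and adult stem cells, was 3.98 and 4.11 against 9.29 and 8.88. Aqp4 and S100b rose by 1.26 ± 0.16 and 1.97 ± 0.26 but stayed below background, Gja1 did not pass the test, and Apoe fell by 0.68 ± 0.15 from a high level. In the oligodendrocyte lineage, 10 of 17 rose and none fell (median 0.77). Olig2 was already above background in the stem cells, at 9.46 and 9.65, and reached 14.19 and 13.99 in NPC. Olig1 was 9.79 and 7.40 in the mESC arrays, a spread of over 2 between replicates, and 13.32 and 13.36 in NPC (4.74 ± 0.40). Gpr17, a receptor of committed oligodendrocyte precursors, was 4.79 and 4.52 against 9.84 and 9.45. Sox10 (5.38 and 5.27 in NPC) and Mbp (3.62 and 3.56) lay below background.

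Neuronal genes did not move as a group. Of 19 tested, 9 rose and 4 fell (median 0.62). Dcx, a microtubule protein of migrating neuroblasts, was 3.64 and 4.16 in mESC and 11.13 and 11.16 in NPC, and Map2 rose by 8.41 ± 0.10. Other cytoskeletal genes of neurons were higher in the stem cells. Stmn2, which encodes the growth cone protein SCG10, was 16.05 and 15.92 in mESC and 6.02 and 6.21 in NPC, a fall of at least 369-fold (-9.87 ± 0.64, adjusted p = 3.6e-11). Tubb3 was 9.76 and 10.02 against 8.59 and 8.46 (-1.36 ± 0.40), Ina differed by -1.65 ± 0.63, and Nefl 6.91 and 7.33 against 3.82 and 4.02. In none of these 4 genes did the stages overlap, which also held for 81.7% of all genes tested. The SE rests on the spread within all 14 groups of the study. The call of Ina was lost without any 1 of the 4 arrays. Nefl, Rbfox3 (NeuN), Snap25 and Syt1 lay below background in all 4 arrays.

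Markers of other cell types that such cultures could hold were mostly near background. On the mesenchyme and neural crest list 11 of 19 tested rose and 4 fell (median 0.75). Dcn, a matrix proteoglycan of fibroblasts, was 3.85 and 3.93 in mESC and 10.96 and 10.90 in NPC, Postn rose by 6.25 ± 0.14 and Col3a1 by 4.72 ± 0.18. The factors Twist1 (4.76 and 4.71 in NPC) and Snai2 (5.21 and 5.53) and the smooth muscle actin gene Acta2 (5.89 and 5.87) lay below background. The part of mesenchymal cells in the rise of the matrix genes was not tested. Of the endoderm list, 5 of 9 tested rose, 4 of them at least 2-fold, and 3 fell, none of them 2-fold. On that list 3 members stood above background in both NPC arrays and 1 in both mESC arrays. Gata6 and Foxa2 lay below background at both stages. The chemokine receptor Cxcr4, which neural precursors also use, rose from 4.14 and 3.85 to 10.58 and 10.39. Of the blood and endothelial markers, Ptprc, Aif1, Csf1r and Cdh5 lay below the filter on low values, and Emcn (3.79) and Tek (-2.88) were the only called members of 4 tested. The mesoderm markers Kdr and Mesp1 lay below the filter as well, and of 7 trophoblast genes tested 2 fell, Tfap2c (-2.02 ± 0.11) and Ascl2 (-0.49, not called without NPC WT replicate 2).

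Epithelial adhesion genes mostly fell and neural adhesion genes mostly rose. Of 30 epithelial adhesion and keratin genes tested, 23 fell and 2 rose (median -1.85), and of 34 neural adhesion genes 30 rose and 1 fell (median 2.81). Cdh1 (E-cadherin) was 12.67 and 12.63 in mESC and 3.91 and 3.78 in NPC, and Cdh2 (N-cadherin) was 6.13 and 6.28 against 14.66 and 14.77, at least 148-fold higher. Epcam fell by 5.74 ± 0.16, the protease inhibitor Spint1 fell by 6.32 ± 0.09 and Cldn4 fell by 6.09 ± 0.23. Keratins 8 and 18 did not pass the test (Krt8, -0.72 ± 0.39; Krt18, -0.38 ± 0.20), but both did with only the compared groups fitted (limma adjusted p = 0.00115 and 0.0329). Chl1, Astn1 and Cdh20, adhesion molecules of neurons, glia and their precursors, rose by 9.66 ± 0.26, 9.38 ± 0.13 and 9.24 ± 0.12.

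Protocadherin genes, whose products give neural cells individual surface identities, rose without exception among those tested: 29 of 29, with a median of 3.56 against -0.04 over all genes. In the longest of the neighbour runs described above, all 19 protocadherin beta genes from Pcdhb2 to Pcdhb20 on chromosome 18 were higher in NPC, by 1.77 to 5.76. None of the 19 was above background in both mESC arrays and 8 were in both NPC arrays. These genes are close in sequence and may share part of their signal, which was not tested. The family was picked by symbol after the values had been seen. Its direction was the same under quantile normalization (29 of 29) and with arrays centred on their negative controls (29 of 29). Without the filter on low values 29 of 32 rose and none fell (median 3.42), and with a stricter filter 28 of 28 rose.

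Matrix and guidance genes were mostly higher. Of 38 extracellular matrix genes tested, 29 rose and 5 fell (median 1.80). Ncan and Bcan, chondroitin sulfate proteoglycans of the brain, rose by 12.33 ± 0.14 and 8.16 ± 0.16, and Tnc, a glycoprotein of the stem cell niche, was 3.99 and 3.95 in mESC and 14.21 and 14.54 in NPC. Fn1 (fibronectin) was 16.43 and 16.36 against 11.62 and 11.55; its protein was part of the induction medium. Of 25 integrins and laminins, 14 rose and 9 fell (median 0.75). Itgb8 was 3.83 and 3.98 against 12.98 and 12.89, the laminin receptor Itga6 rose by 1.77 ± 0.10, and the fibronectin receptor Itga5 fell by 3.74. Of 47 axon guidance genes, 35 rose and 6 fell (median 1.61). Sema6a was 4.98 and 4.90 against 14.55 and 14.64, Rgma rose by 7.38 ± 0.21, and the receptor Epha2 was 10.65 and 10.60 against 3.80 and 3.81.

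Among growth factor genes and their receptors, Egfr, the receptor through which late precursors respond to EGF, was 5.33 and 5.26 in mESC and 15.24 and 15.24 in NPC, at least 213-fold higher, and Erbb3 of the same family was 8.83 and 8.94 against 4.07 and 3.82. Ednrb, the endothelin receptor of radial glia, was at least 524-fold higher (measured difference 12.48 ± 0.14). Kit, the stem cell factor receptor, fell by 3.25 ± 0.14. Of 31 genes on this list, 20 rose and 9 fell (median 1.42). Of 25 glutamate and GABA receptor genes, 16 rose and 2 fell (median 1.62), and the largest rise was that of Gabrg1, a GABA-A subunit, from 3.84 and 4.08 to 9.80 and 9.83.

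Genes of glucose use were mostly lower and those of glutamate, creatine and fatty acid handling mostly higher. Of 24 glycolysis and lactate genes tested, 16 fell and 6 rose (median -0.62). The glucose transporter Slc2a3 (GLUT3) was 15.11 and 15.19 in mESC and 6.73 and 6.62 in NPC, Slc2a1 (GLUT1) was 14.21 and 14.35 against 9.07 and 9.12, and Hk2, the hexokinase of rapidly growing cells, was 11.58 and 11.56 against 4.50 and 4.60. Pfkp fell by 5.46 ± 0.18, while Hk1 moved by only 0.23 ± 0.07 (not called without NPC WT replicate 2) and Ldha by -0.63 ± 0.18, a call lost under quantile normalization (-0.37). Pdk2, a kinase that restrains entry of pyruvate into mitochondria, rose by 3.67 ± 0.14. In serine and one-carbon metabolism, 10 of 17 fell and 7 rose (median -1.73): Mthfd1 fell from 14.75 and 14.79 to 10.33 and 10.33 and Shmt1 fell by 4.59 ± 0.11, and Phgdh, the first enzyme of serine synthesis, rose by 2.52 ± 0.15. Of 31 genes of glutamate, creatine and fatty acid handling, 20 rose and 10 fell (median 1.44). Fabp3, the heart fatty acid binding protein, was 14.94 and 15.12 in mESC and 5.71 and 6.31 in NPC, although a second cluster of this gene lay near background at both stages (-0.29). Acsbg1, a fatty acyl-CoA synthetase of glia, rose by 6.47 ± 0.15, Ckb by 3.04 ± 0.08, and the arginine transporter Slc7a3 fell by 8.28 ± 0.19.

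Genes of DNA replication fell together, while the proliferation marker Mki67 rose. Of 49 replication and mitosis genes tested, 44 fell and 1 rose, with a median of -2.56. Mcm2, a subunit of the replicative helicase, was 13.93 and 14.12 in mESC and 8.61 and 8.94 in NPC (-5.25 ± 0.13), and Mcm3 fell by 5.69 ± 0.14. The origin licensing factors Cdt1 and Cdc6 changed by -5.88 ± 0.11 and -4.99 ± 0.13, and both ended below background. Among mitotic genes, Plk1 was 13.32 and 13.37 against 12.28 and 12.44, Aurkb fell by 1.82 ± 0.10, and Nuf2, a kinetochore protein, was the 1 rise (0.77 ± 0.09). Mki67 was 13.57 and 13.45 in mESC and 14.83 and 15.19 in NPC (adjusted p = 1.64e-06). Of 43 core cell cycle genes and inhibitors, 24 fell and 13 rose (median -0.94). Ccne1, the cyclin of S phase entry, changed by -6.21 ± 0.11, and Ccnd2, the D cyclin of neural precursors, was 5.03 and 5.15 against 13.53 and 13.85. The inhibitor Cdkn1b (p27) rose from 6.22 and 6.05 to 10.51 and 10.67, and Mybl2, a transcription factor of cycling cells, fell by 9.80 ± 0.10.

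Other growth machinery, grouped by symbol after the values had been seen, fell as well. Of 18 nucleoporin genes 17 fell and none rose (median -2.90), and Nup107 was 11.65 and 11.55 in mESC and 7.48 and 7.57 in NPC. Of 38 cytosolic ribosomal protein genes 35 fell (median -1.17), and of 75 mitochondrial ones 64 fell and 3 rose (median -0.91). RNA polymerase subunits (22 of 25 lower, median -1.63), proteasome subunits (30 of 38 lower, median -0.92) and DEAD and DEAH helicases (41 of 49 lower, 3 higher) had the same direction. So did the genes with an Eif symbol (33 of 46 lower, 8 higher), which are translation initiation factors and some of their regulators. With quantile normalization these medians were -2.63 for nucleoporins, -0.94 and -0.77 for the ribosomal groups, -1.46 for polymerase and -0.68 for proteasome subunits, and no direction changed. The array reads each sample against the same total of RNA, so a fall is relative to the rest of the transcriptome and not per cell.

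**Figure D4:**
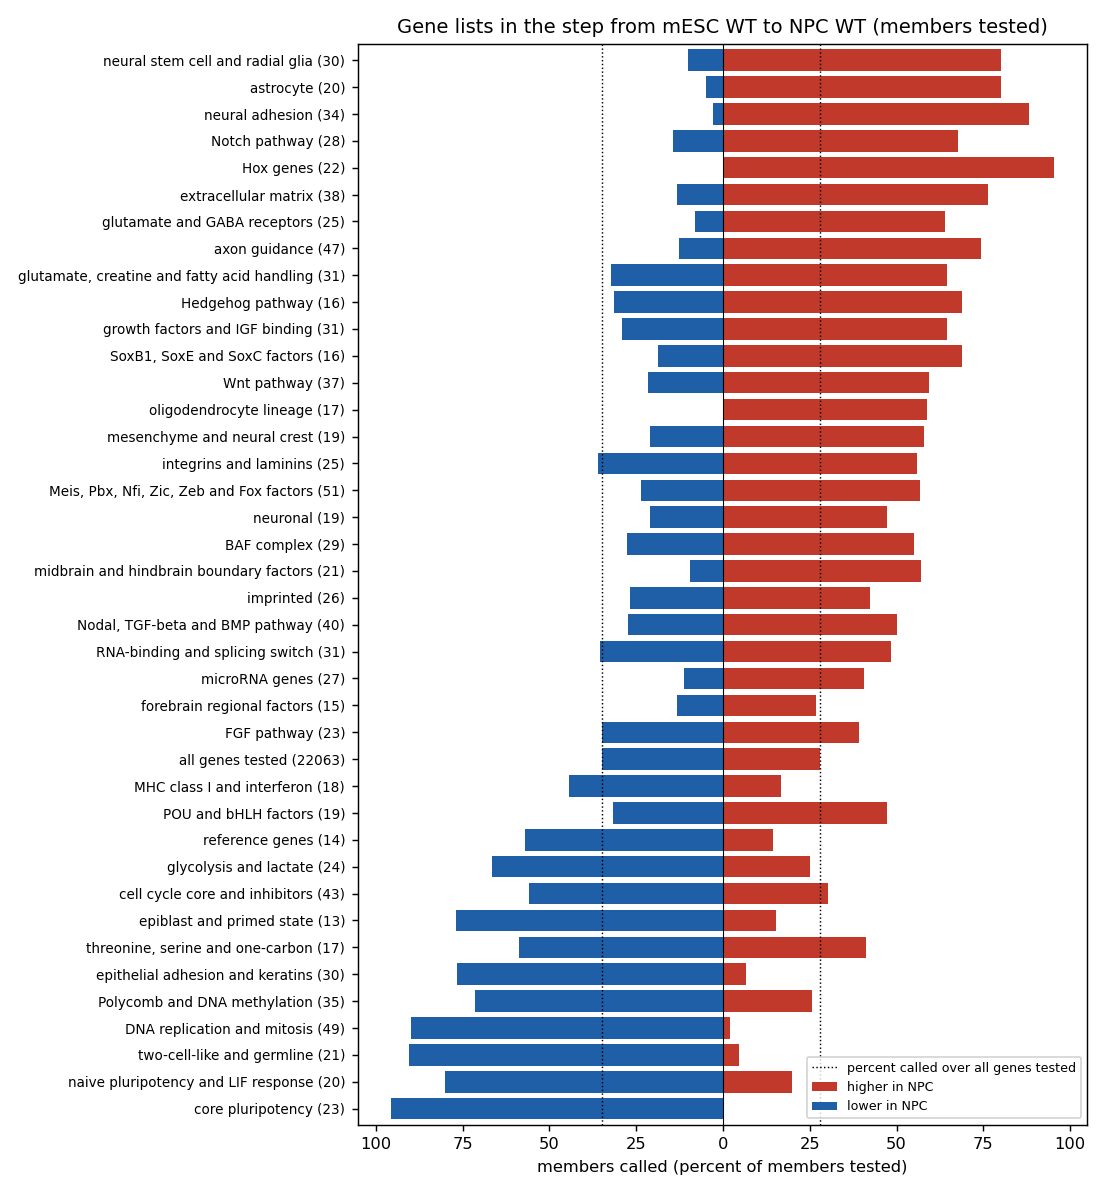
Percent of tested members called higher (red, right) or lower (blue, left) in NPC WT for each list with at least 10 members tested and for all genes, ordered by median difference, with the number tested in brackets. Dotted lines mark 27.9% higher and 35% lower over all 22063 genes; the core pluripotency list stands at the bottom with 22 of 23 lower and the radial glia list at the top with 24 of 30 higher.

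RNA-binding proteins and splicing factors changed in both directions: of 31 tested, 15 rose and 11 fell (median 0.21). The neural splicing factors Rbfox1, Rbfox2, Celf4 and Srrm4, named after their values had been seen, did not pass the test; Celf4 passed with only the compared groups fitted (-0.96, limma adjusted p = 0.000534). Ptbp1, a splicing repressor that holds neural exons out, was 14.04 and 14.07 in mESC and 11.58 and 11.64 in NPC, and its neural paralogue Ptbp2 was 7.57 and 7.56 against 11.79 and 11.83. Nova1 rose by 5.85 ± 0.16 and Qk, a splicing regulator of glia, by 3.70 ± 0.09. Trim71 (Lin-41), a target of let-7, was 11.26 and 11.31 against 4.19 and 4.04, while Lin28a and Lin28b, which block let-7 maturation, changed by -1.54 ± 0.16 and -1.79 ± 0.17 but lay below background in all 4 arrays.

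Mature sequences of microRNA genes that rose are printed, with 1 that fell (miR-363), because 5 of them lie in the clusters that join miR-99 or miR-100, let-7 and miR-125b. The probes read the microRNA gene, not the mature microRNA, and every level was below background, so the calls rest on differences within the range of the negative controls. Of 27 microRNA genes tested, 11 rose and 3 fell (median 0.15). Mature sequences from RefSeq (GRCm38.p6) are given 5′ to 3′ with the seed, bases 2 to 8, in capitals.
miR-99a-5p: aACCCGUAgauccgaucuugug
miR-100-5p: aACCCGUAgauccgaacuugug
let-7c-5p: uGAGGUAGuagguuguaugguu
miR-125b-5p: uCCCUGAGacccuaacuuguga
miR-181a-5p: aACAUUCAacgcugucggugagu
miR-363-3p: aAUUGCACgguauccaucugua
The first 2 share a seed and differ in the body of the sequence. On chromosome 16, Mir99a was 2.83 and 2.59 in mESC and 4.42 and 4.37 in NPC, Mirlet7c-1 was 2.63 and 2.88 against 4.61 and 4.87, and Mir125b-2 was 2.66 and 2.60 against 4.96 and 4.77. Their host transcript Mir99ahg was 4.11 and 4.17 against 6.97 and 7.15 (2.92 ± 0.15). On chromosome 9, Mir100 rose by 2.23 ± 0.19 and Mir125b-1 by 1.29 ± 0.26. Mir181a-2 rose by 2.50 ± 0.22, and Mir363, a member of a stem cell cluster on the X chromosome, fell by 1.27 ± 0.20. Mir100 and Mir125b-1 were named for their sequence after their values had been seen.

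RNA classes differed in their counts. Among genes that RefSeq classes as pseudogenes, 323 of 3286 tested rose and 1637 fell (9.83% and 49.8%, median -0.44), and among protein-coding genes 34.5% rose and 36.9% fell. Ribosomal RNA genes gave 58 rises and 1 fall among 62. Many of these small genes are copies that share all their values on the array: of the 62, 44 did, and the 62 stand for 23 distinct measurements, of which 19 rose and 1 fell (median 1.01). Of 767 small nuclear RNA genes, 261 rose and 26 fell, and their 695 distinct measurements gave 196 rises and 23 falls.

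Imprinted and immune genes showed single large changes. Of 26 imprinted genes tested, 11 rose and 7 fell (median 0.26). Nnat, a brain proteolipid, rose by 7.72 ± 0.16, Ndn rose by 4.74 ± 0.48, and the placental gene Phlda2 fell from 10.72 and 10.05 to 3.87 and 3.90. Of 18 genes of MHC class I and the interferon response, 8 fell and 3 rose (median -0.05): B2m, the light chain of MHC class I, was 10.40 and 10.56 against 14.03 and 13.98, while Ifitm3 was 12.45 and 12.44 against 7.86 and 7.72 and Bst2 fell by 4.49 ± 0.24. Genes often used to normalise expression were not all level. Of 14 tested, 8 fell and 2 rose: Eef1a1 was 19.24 and 19.24 against 19.19 and 19.23, Actb rose by 0.28 ± 0.08 (but was -0.16 ± 0.11 and not called under quantile normalization), Gapdh fell by 0.59 ± 0.07, and Hprt was 12.77 and 12.56 against 8.19 and 8.36.

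The estrogen receptors were at background. Esr2 (ERβ) was 3.32 and 3.43 in mESC and 3.37 and 3.26 in NPC (-0.06 ± 0.13, adjusted p = 0.704), and Esr1 (ERα) was 3.39 and 3.52 against 3.35 and 3.44 (-0.06 ± 0.09, adjusted p = 0.594). All 8 values lay below the medians of the negative controls, between 4.09 and 4.15.

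The same step in arrays labelled BERKO, also 2 per stage, also had the large changes. Esr2 read higher in those arrays than in WT (4.09 against 3.37 in mESC and 4.31 against 3.31 in NPC, all below background). At such levels the arrays cannot show whether Esr2 was lost, so the labels are used as names here. In the array titles, the mESC BERKO pair shares a sample number, with a suffix on one array only. The pair of WT precursors given LY3201 is titled likewise, unlike the WT pairs of the step. Whether such a pair holds repeat arrays of the same culture was not tested. The model treated all arrays as separate samples. The 30 largest named rises and falls of the WT step gave differences between 8.8 and 13.9 and between -15.2 and -9.93 in BERKO. A test of the difference between the steps called 2119 genes (9.6%), 1401 with a higher value in the BERKO step (6.35%) and 718 with a lower one (3.25%); differences of at least 2-fold made up 1.84% and 0.875% of genes in these directions. With quantile normalization, 999 and 1009 genes were called in these directions, so the split depends on the scaling.

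**Figure D5:**
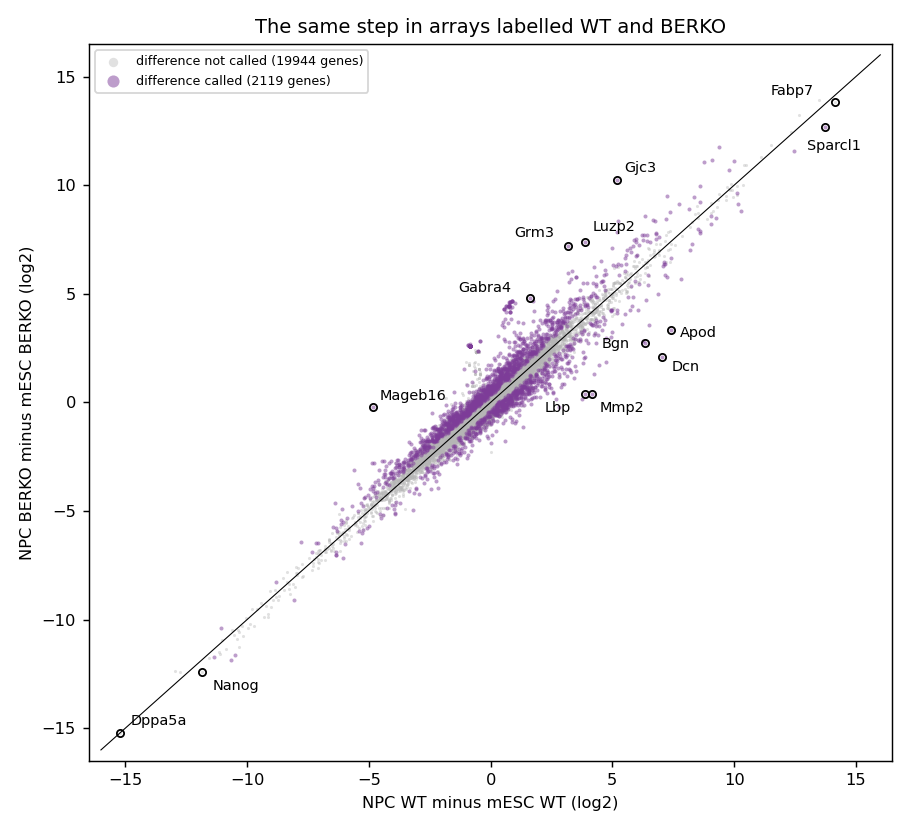
Difference NPC minus mESC in arrays labelled BERKO (vertical) against WT (horizontal) for the 22063 genes tested, 2 arrays per group, with the 2119 genes whose steps differed in purple and the line of equal change. Most genes lie along the line, Gjc3 and Mageb16 lie above it by 5.06 and 4.61, and Dcn lies below it by 4.93.

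Among named genes, those whose rise was smaller in BERKO were led by Dcn. Dcn rose from 3.89 to 10.93 in WT (means of 2 arrays) and by 2.11 in BERKO, a difference of -4.93 ± 0.32 (adjusted p = 5.2e-09). Mmp2, a matrix metalloprotease, rose by 4.17 in WT and 0.40 in BERKO, and Bgn and Apod had differences of -3.61 and -4.05 and Lbp of -3.49. All 4 group means of Lbp lay below background, as did Bgn, Mmp2 and Dcn in the BERKO precursors (6.98, 5.54 and 6.06), so these are differences of measured values. Those with a larger rise were led by Gjc3, a connexin of oligodendrocytes, which rose by 5.19 in WT and 10.25 in BERKO, and by Grm3 (3.18 and 7.19), Luzp2 (3.89 and 7.39) and the GABA-A subunit Gabra4 (1.62 and 4.83). Grm3 and Gabra4 stayed below background in WT, at means of 6.58 and 6.22 in NPC. Mageb16, a MAGE gene of germ cells, was 9.98 in mESC WT and 5.14 in NPC WT, and 10.18 and 9.95 at the same stages in BERKO, so it fell in WT and moved by -0.23 in BERKO. On the replication and mitosis list 31 of 49 genes had a higher value in the BERKO step and none a lower one, against 6.35% and 3.25% of all genes. On the Hox list 11 of 22 had a lower value and none a higher one. Only 5 Hox genes were above background in both NPC WT arrays and none in both mESC WT arrays. These list counts were not repeated under quantile normalization, which moved the balance of directions over all genes. The precursors labelled WT+LY3201 lay within -0.21 and 0.31 of the WT precursors for the 30 largest named changes.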

How the data were processed

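RNA from mouse cell cultures was measured on 29 Clariom D (MTA 1.0) arrays in 14 groups, of which 2 mESC WT and 2 NPC WT arrays gave the step described and 4 arrays labelled BERKO the comparison between genotypes. The deposited values are log2 signals that the authors made with the SST-RMA method of Affymetrix Expression Console 1.4, per the labels; RMA and Transcriptome Analysis Console stand in the submitters' processing notes without a version, and the genome build of the clusters is not given in the sources used here, so none of their coordinates is printed. The table held 72688 entries, of which 6732 were controls or spike-ins and were left out of the tests. Of 65956 transcript clusters, 30604 had 1 gene symbol, 2146 had several and 33206 had none, and only the first kind was named. Symbols were updated to RefSeq for 827 clusters, and for the 355 genes with several clusters the one with the highest mean stood for the gene.

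Dim genes were left out: a gene needed at least 2 of the 29 arrays above the median over all clusters of that array. One limma model (limma 3.58.1, R 4.3.3) with a mean for each of the 14 groups was fitted to all 29 arrays, with empirical Bayes moderation (15 residual degrees of freedom), and every adjusted p printed is limma's after Benjamini-Hochberg adjustment over 22063 genes. Summaries used Python 3.11.15 with pandas 2.3.3 and numpy 2.4.6, and figures matplotlib 3.10.9. The fitting script was tested on simulated data with known changes. The number of arrays, 2 per group, limits the precision. Alternatives were other filters, quantile normalization, centring on negative controls, leaving out each array, other background percentiles, transcript clusters as the unit, a model of only the groups compared, and a robust prior with a trend.

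The genes, gene lists and tests were chosen with earlier results of these data known. Named genes are key members of the lists, the 3 largest called changes each way per list, the 15 largest each way over all genes, the 5 largest genotype differences each way, Esr1 and Esr2. Eef1a1 and the genes given by family, neighbourhood, motif or sequence were chosen after their values were seen. Promoter and microRNA sequences are from RefSeq (GRCm38.p6); 8 microRNA genes were looked up and 8 matched.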

Additional observations from a re-analysis of the deposited data

Results flagged for a closer look

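The step from stem cell to precursor differed between arrays labelled WT and BERKO for 2119 genes by a test of the difference itself (limma, Benjamini-Hochberg adjusted p under 0.05), and the values below are the BERKO step minus the WT step on the log2 scale for genes named above. Among genes of mesenchyme, matrix and vessels they were -4.93 for Dcn, -4.05 for Apod, -3.78 for Mmp2, -3.61 for Bgn, -3.49 for Lbp, -3.42 for Postn, -2.85 for Col3a1, -2.93 for Cxcr4, -1.95 for Emcn, -0.57 for Tek and 0.74 for Bcan. In the oligodendrocyte lineage and among transmitter receptors the differences were 5.06 for Gjc3, 2.13 for Gpr17, 1.96 for Olig2, 4.01 for Grm3, 3.21 for Gabra4 and 3.51 for Luzp2. For radial glial and astrocyte genes they were -0.91 for Ednrb, -1.39 for Id4, -1.02 for Nfia, -0.78 for Nfib, -0.79 for Slc1a2, 0.84 for Slc1a3, 0.54 for Vim, 0.82 for Fgfr3, 1.43 for S100b and -1.07 for Sparcl1. Transcription factors, with 1 Hox gene among them, gave -1.79 for Hoxa6, -1.44 for Pou3f2, -0.68 for Tcf4, -0.61 for Meis1, 1.55 for Sox3, 1.29 for Sox6 and 0.93 for Sox9. In the Notch pathway the values were -1.54 for Jag1, -0.68 for Maml3, 0.68 for Dll3, 0.61 for Hes5, 0.89 for Notch3 and 1.12 for Nrarp. Hedgehog, BMP, FGF and Wnt genes gave -1.25 for Ptch1, -1.10 for Gli2, -0.95 for Gli1, 0.67 for Boc, -0.92 for Bmpr1b, -1.17 for Id2, 1.37 for Spry4, 0.71 for Porcn and -1.11 for Sfrp1. Germline genes differed by 4.61 for Mageb16, -1.16 for Rhox5, -0.94 for Ddx4, -0.66 for Dazl and 0.67 for Zscan4c. For chromatin and RNA-binding genes the differences were 0.62 for Bmi1, 0.62 for L3mbtl2, 0.42 for Dpf1, 0.54 for Smarca4, 0.38 for Smarcc1, 0.36 for Smarcc2 and 1.36 for Nova1. Cell cycle genes differed by 1.12 for Mki67, -0.69 for Ccnd2, 0.84 for Aurkb, 0.54 for Cdt1 and 0.80 for Nuf2. Other named genes differed by -0.74 for Cdh20, -1.48 for Dcx, 0.46 for Hk1, -0.85 for Itga6, 1.34 for Kit, 0.96 for Ldha, -0.57 for Lifr, -1.65 for Mir100, -1.13 for Mir363, -0.90 for Mir99ahg, 0.56 for Mthfd1, 1.41 for Nnat, 1.49 for Pcdhb2, 0.90 for Phgdh, -0.68 for Stat3 and -0.79 for Tfap2c. Dcn, Postn and Col3a1, whose rise in WT is described above beside mesenchymal markers, all rose less in BERKO. Every group mean lay below background for Lbp, Zscan4c, Tek, Tfap2c, Gli1, Maml3, Dpf1, Mir100, Mir363 and Mir99ahg. Many other genes lay below it in some groups. For these genes the values are differences of measured values and do not give the size of a change in expression. All these values share the same 8 arrays, and scaling moves the balance of directions over all genes. Whether the mESC BERKO arrays among them came from separate cultures was not tested. Groups of 2 arrays were too small for a search for single outlying arrays.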

How the results depend on the processing

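No paired analysis was possible because the labels carry no replicate number shared between stages, and the numbers used here only name arrays in accession order. With transcript clusters in place of genes, 43502 features were tested and the step called 21273 of them, 9878 higher. Leaving out 1 array gave 12764 to 12844 calls for the step, 5559 to 5639 higher and 7125 to 7220 lower. For the genotype difference the same gave 1318 to 1895 calls, 880 to 1251 higher and 438 to 644 lower; the lowest counts came without NPC WT replicate 1, and without NPC BERKO replicate 2 924 genes were higher. Under quantile normalization the genotype difference called 999 genes higher and 1009 lower. At the 99th percentile of the negative controls, 287 genes were above background in NPC only and 613 in mESC only. Counts of calls otherwise stayed within 1.5 times the main count under the other alternatives, apart from small list counts (28 of 860 moved further). Among named genes, 1 value reversed: Actb was -0.157 under quantile normalization (adjusted p = 0.245, limma). Of the values of named genes for the step under an alternative, 2629 kept direction and side of the threshold, 27 lost the call and 9 gained it, Sox2, Gja1 and Pou3f1 among the latter under quantile normalization. For the genotype difference 982 were kept and 165 lost. The causes were not tested. Levels near the negative controls, which include those of every microRNA gene named and of Esr1 and Esr2, limit what can be read.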
